A study of Mus musculus with 12 samples.

Results

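The prostaglandin pathway and the bradykinin receptors were examined through 10 genes in iMEPM cells, the immortalized mouse embryonic palatal mesenchyme line. They are the cyclooxygenases Ptgs1 and Ptgs2, the terminal synthases Ptges and Ptgis, the prostanoid receptors Ptgfr, Ptger1, Ptger2 and Ptger4, and the bradykinin receptors Bdkrb1 and Bdkrb2. The genes were chosen by symbol from the 51490 genes in the table, and the set was chosen because Bdkrb2 was among the genes that responded to PDGF-AA in scramble cells. The values of all genes in that comparison are therefore a description, with no p-values, and the call of Bdkrb2 there is what chose the set. Of the 10 genes, 9 were among the 15037 genes that passed the filter on low counts, and each of these 9 had at least 27 counts in every sample. Bdkrb1 did not pass the filter.

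RNA-seq was performed on iMEPM cells, which came from a male Cdkn2a-/- embryo, with a stably integrated scramble shRNA (scramble) or Srsf3 shRNA (shSrsf3). Srsf3 encodes a splicing factor of the serine/arginine-rich family. Cells of both lines were left without ligand (-PDGF-AA) or received 10 ng/mL PDGF-AA, a ligand of PDGFRα, for 1 hr (+PDGF-AA). Each of the 4 groups held n = 3 biological replicates. The paper's methods describe serum starvation before ligand treatment in its other assays and do not restate it for RNA-seq. All 12 samples share the Cdkn2a deletion, the lentiviral vector, the puromycin selection and the sort for GFP, and each shRNA is represented by 1 stable line, so that knockdown and line cannot be told apart. Library totals were between 30958966 and 76123359 counts. They were lower in shSrsf3 +PDGF-AA samples (30958966 to 37334733) than in scramble +PDGF-AA samples (57313132 to 65707963). The part of this depth in the results was not tested. Srsf3 itself fell from 206 ± 6.59 to 162.5 ± 1.46 CPM (library-scaled counts, SD, n = 3) in -PDGF-AA samples and from 222 ± 8.07 to 165 ± 4.33 CPM in +PDGF-AA samples (log2 fold change -0.34 and -0.43, adjusted p = 7.95e-06 and 9.54e-07 in edgeR). Of its 31-base sequences, 12.4% also occur in transcripts of other genes, so these counts are uncertain. The paper measured Srsf3 protein by western blot and reported a decrease in the shSrsf3 line, and the RNA values do not give the size of that decrease. The 7 palatal mesenchyme markers (Pdgfra, Prrx1, Twist1, Msx1, Osr2, Col1a1 and Vim) were detected and summed to between 21900 and 23500 CPM, most of it Col1a1 and Vim. Several of them differed between the lines. Without and with ligand, the log2 fold change in shSrsf3 samples was -0.53 and -0.36 for Pdgfra, the receptor of the ligand, -0.25 and -0.17 for Prrx1, -0.93 and -1.10 for Msx1 and 0.25 and 0.24 for Vim (adjusted p of at most 0.0049 in edgeR). Osr2 had -0.82 (adjusted p = 0.00329 in edgeR) and -0.43 (adjusted p = 0.106). Adgre1, Sox10 and Myod1, markers of macrophages, neural crest and glia, and muscle, were at 0 counts in all 12 samples. Cd68, another macrophage marker, was detected in every sample, with group means between 1.10 and 1.46 CPM. Among the endothelial markers, Cdh5 had a mean of 0.274 and 0.206 CPM in scramble and 1.37 and 1.49 CPM in shSrsf3 samples without and with ligand, and the 3 endothelial markers summed to between 0.727 and 1.22 CPM in scramble and between 2.14 and 2.70 CPM in shSrsf3 samples. The 4 epithelial markers summed to between 2.06 and 3.30 CPM in scramble and between 0.510 and 0.998 CPM in shSrsf3 samples. The neural markers, mostly Tubb3, summed to between 26.2 and 29.2 CPM in scramble and between 17.4 and 22.9 CPM in shSrsf3 samples, the blood and macrophage markers to between 0.814 and 1.68 CPM and the muscle markers to between 0.104 and 0.248 CPM in scramble and between 0.228 and 0.579 CPM in shSrsf3 samples. The endothelial, epithelial, neural and muscle sums moved with the shRNA through part of their genes, mainly Cdh5 and Kdr, Cdh1, Tubb3, and Des. Pecam1 had a mean of 0.50 CPM in scramble and 0.31 in shSrsf3 samples without ligand, and 0.33 and 0.40 with ligand. Epcam had 0.15 and 0.14 CPM without and 0.26 and 0.19 with ligand. Some of the mesenchymal markers moved with the shRNA, as did several genes below. The part of the markers in the results was not tested. Per the methods, replicates 1 and 2 of scramble -PDGF-AA and replicate 2 of scramble +PDGF-AA had the lowest mapping rates, and calls that change without these 3 samples are given both ways. In bulk RNA, fewer cells of a type and less RNA per cell cannot be told apart.

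Prostaglandins are lipid mediators that cells make from arachidonic acid. The cyclooxygenases COX-1 (Ptgs1) and COX-2 (Ptgs2) convert arachidonic acid to prostaglandin H2, and terminal synthases turn this intermediate into prostaglandin E2 (Ptges), prostacyclin (Ptgis) and other prostanoids, which act on G protein-coupled receptors of the same or neighboring cells. Bradykinin, a short peptide cut from kininogen, acts on the B2 receptor (Bdkrb2), which is present in many resting tissues, and its breakdown product without the last arginine acts on the B1 receptor (Bdkrb1), known for its induction in injured tissue. B2 receptor signaling through Gq releases calcium and arachidonic acid and so is a known trigger of prostaglandin synthesis. COX-2 is a classical immediate early gene in fibroblasts.

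Bdkrb2 and Bdkrb1 are neighbors on chromosome 12. In the GENCODE M39 annotation of GRCm39, Bdkrb2 (ENSMUSG00000021070.8) spans chr12:105529383-105561503 and Bdkrb1 (ENSMUSG00000041347.7) spans chr12:105564876-105572001, both on the + strand with a gap of 3372 bases. The 250 bases before the start of each gene's canonical transcript, at chr12:105529133-105529382 and chr12:105569094-105569343, are shown because the pair lies side by side but differed in level in these cells. Neither stretch holds annotated exon sequence. They were read from the GRCm39 genome and are written from 5′ to 3′ on the + strand, with capitals for the letters TGACATCA. Both also contain other stretches in common, which are not marked.
Bdkrb2: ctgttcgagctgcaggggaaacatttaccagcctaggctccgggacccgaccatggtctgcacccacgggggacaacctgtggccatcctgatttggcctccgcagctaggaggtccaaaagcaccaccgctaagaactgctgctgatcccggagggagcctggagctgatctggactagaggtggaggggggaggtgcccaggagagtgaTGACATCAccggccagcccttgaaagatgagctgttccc
Bdkrb1: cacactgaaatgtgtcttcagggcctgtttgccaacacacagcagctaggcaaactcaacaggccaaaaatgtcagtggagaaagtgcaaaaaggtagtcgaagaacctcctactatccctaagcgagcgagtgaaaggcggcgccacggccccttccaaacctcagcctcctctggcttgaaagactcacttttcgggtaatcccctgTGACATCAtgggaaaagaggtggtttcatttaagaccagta
The marked letters begin 39 bases before the start of Bdkrb2 and 41 bases before that of Bdkrb1. They were picked after both sequences had been read, and on either strand 2.61% of the 21770 promoters of this length hold them, including no other of the 10 genes.

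The other motifs searched on both strands were the TATA box TATAAA (11.9% of promoters), the cAMP response element TGACGTCA (1.69%), its core TGACG (18%, a motif contained in the full element), the AP-1 site TGANTCA (6.17%) and the E-box CACGTG (6.26%). Of these, the core alone was found, in 2 of the 10 genes, Ptgs2 and Ptgis, where it lies on the strand opposite to the gene and begins 72 and 103 bases before the start. The 30 bases around it are shown, on the strand of the gene, because they are the matches among the enzymes, at chr1:149975403-149975432 on the + strand and chr2:167082704-167082733 on the - strand, with the core in capitals.
Ptgs2: tgagcagcgagcaCGTCAgactgcgcccca
Ptgis: gacagcttgcgatCGTCAccacagtcaggt
Both matches lie within annotated exons of another transcript of the gene or of a neighboring gene. A match describes letters in a window and is not a binding site.

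The genes of the pathway were present at very different levels. Levels between genes are compared as CPM per kb of annotated exon. This length covers the exons of all annotated transcripts of a gene, and the transcripts present can be shorter. The order of genes close in level is uncertain for that reason. In scramble -PDGF-AA samples, Ptgs2 was the highest with 94.6 ± 6.82 CPM per kb (SD, n = 3), followed by Ptgs1 with 20.2 ± 0.406, Ptgis with 7.23 ± 0.113 and Ptges with 5.26 ± 0.204 CPM per kb, with no overlap between neighbors in this order. The receptors were lower. Ptgfr, Ptger1 and Ptger4 had 1.21 ± 0.116, 1.11 ± 0.108 and 1.10 ± 0.146 CPM per kb, and their samples overlapped. Ptger2 (0.348 ± 0.0309) and Bdkrb2 (0.333 ± 0.0948) overlapped at a lower level, and Bdkrb1 was at 0.0239 ± 0.0156 CPM per kb.

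The order of the receptors differed between groups. In scramble +PDGF-AA samples Bdkrb2 had 0.748 ± 0.0811 CPM per kb, below the lowest sample of Ptger1 at 0.927. In shSrsf3 -PDGF-AA samples Bdkrb2 and Ptger4 had 1.97 ± 0.109 and 1.96 ± 0.0879 CPM per kb, with overlapping samples, and each of their samples lay above every sample of Ptgfr, Ptger1 and Ptger2. In shSrsf3 +PDGF-AA samples the highest mean among the receptors was that of Bdkrb2 with 3.16 ± 0.595 CPM per kb, whose samples overlapped those of Ptger4 with 2.66 ± 0.262 CPM per kb.

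**Figure D1:**
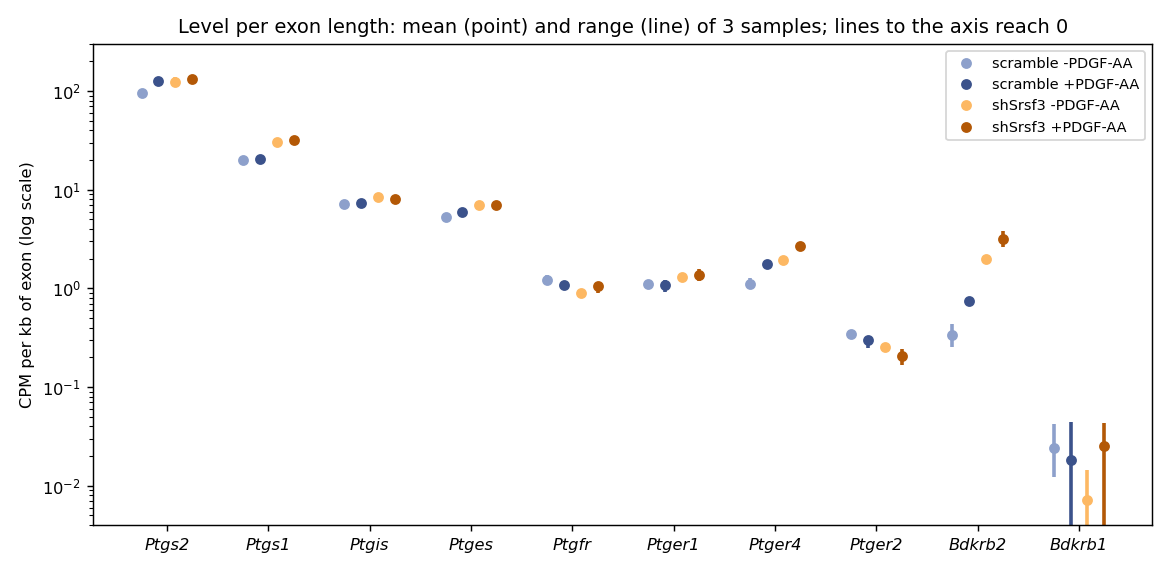
Level of the 10 genes in CPM per kb of exon on a log axis, as the mean (point) and range (line) of 3 samples in each of the 4 groups. Ptgs2 lies between 94.6 and 133 CPM per kb in the group means, the receptors lie at or below 3.16, and Bdkrb2 moves from 0.333 to 3.16 across groups.

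To determine how knockdown of Srsf3 was related to these genes, scramble and shSrsf3 samples were compared within each ligand condition. Without ligand, edgeR gave 8 of the 9 an adjusted p of at most 0.05, 6 higher and 2 lower in shSrsf3 samples, against 45.9% of all tested genes in either direction. In the presence of ligand, 7 of the 9 did, 6 higher and 1 lower, against 41.0% of all tested genes. DE genes, with a fold change of at least 2 as well, made up 5.75% and 5.42% of all tested genes, and Bdkrb2 was the 1 DE gene among the 9 in both conditions. Samples of the 2 lines did not overlap for 9 of 9 genes without ligand and for 5 of 9 with ligand, against 53.3% and 52.6% of all tested genes. The median log2 fold change of the 9 genes was 0.37 and 0.23, and that of all tested genes was -0.02 and -0.01. The comparison without ligand uses the scramble -PDGF-AA samples, and the comparison with ligand the scramble +PDGF-AA samples, of the contrast on which Bdkrb2 was chosen.

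Ptgs1, the constitutive cyclooxygenase, was higher in shSrsf3 samples in both conditions. It had 78.2, 80.3 and 77.3 CPM in scramble -PDGF-AA samples and 114, 115 and 123 CPM in shSrsf3 -PDGF-AA samples. With ligand it had 78.9, 82.5 and 80.2 CPM in scramble samples and 121, 121 and 134 CPM in shSrsf3 samples. Every shSrsf3 sample lay above every scramble sample. The log2 fold change was 0.58 (SE 0.0470, adjusted p = 3.85e-07 in edgeR) without and 0.64 (SE 0.0470, adjusted p = 1.67e-07) with ligand, or 1.49-fold and 1.56-fold.

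Ptgs2, the inducible cyclooxygenase, was the most abundant of the 10 genes and differed between the lines in the absence of ligand. Scramble -PDGF-AA samples had 513, 495 and 446 CPM, and shSrsf3 -PDGF-AA samples had 562, 617 and 705 CPM, so that the groups did not overlap (log2 fold change 0.37, SE 0.0791, adjusted p = 0.0017 in edgeR). In the presence of ligand, scramble samples had 621, 630 and 706 CPM and shSrsf3 samples 685, 642 and 723 CPM. These groups overlapped, with a log2 fold change of 0.07 (95% interval -0.10 to 0.24, adjusted p = 0.537 in edgeR). The antisense gene Ptgs2os shares exon sequence with Ptgs2. The libraries were stranded per the methods, but the strand setting of the counting is not given in the sources used here. Ptgs2os was listed at 1.45 to 2.79 CPM.

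The level of Ptgs2 relative to Ptgs1 was computed as a ratio of CPM per kb after the values had been seen. Without ligand, the ratio was 4.68 ± 0.302 in scramble and 4.06 ± 0.311 in shSrsf3 samples, with no overlap. With ligand, the ratio was 6.15 ± 0.469 in scramble and 4.14 ± 0.146 in shSrsf3 samples, again with no overlap. No test is given, since the ratio restates the differences of Ptgs1 and Ptgs2 given above.

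Ptges, the inducible microsomal prostaglandin E synthase, had 24.2, 22.7 and 22.6 CPM in scramble -PDGF-AA samples and 30.04, 29.5 and 32.7 CPM in shSrsf3 -PDGF-AA samples. With ligand it had 25.99, 26.4 and 27.03 CPM in scramble and 29.3, 32.4 and 31.7 CPM in shSrsf3 samples. All shSrsf3 samples lay above all scramble samples in each condition (log2 fold change 0.41 and 0.23, SE 0.0496 and 0.0499, adjusted p = 1.91e-05 and 0.00211 in edgeR). Ptgis, the prostacyclin synthase, had 25.4, 26.02 and 26.2 CPM in scramble and 30.1, 29.97 and 30.6 CPM in shSrsf3 samples without ligand (log2 fold change 0.22, SE 0.0515, adjusted p = 0.00305 in edgeR). With ligand the scramble samples had 26.7, 25.7 and 25.8 CPM and the shSrsf3 samples 31.5, 29.3 and 26.3 CPM. There, 1 shSrsf3 sample fell within the scramble range, and the log2 fold change was 0.16 (SE 0.0523, adjusted p = 0.028 in edgeR). The call with ligand was lost under 7 of 19 alternatives, among them without shSrsf3 +PDGF-AA replicate 1 (log2 fold change 0.10, adjusted p = 0.173 in edgeR). The call without ligand was lost without the 3 samples of lowest mapping rate (0.20, adjusted p = 0.0524 in edgeR).

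**Figure D2:**
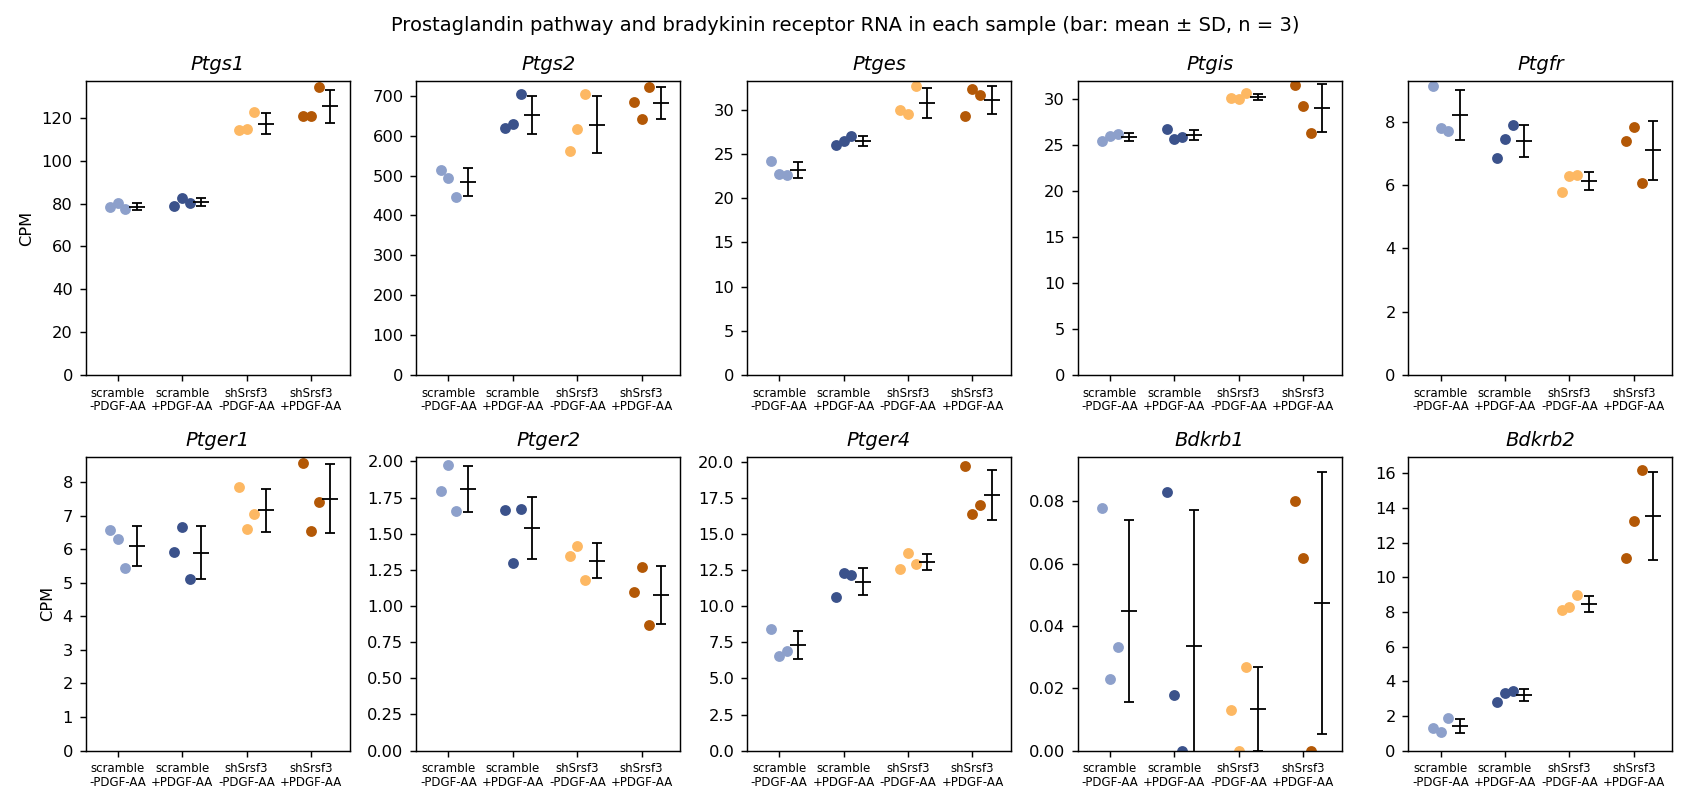
CPM of each of the 10 genes in every sample (points, 3 per group) with the group mean ± SD (bars), on linear axes that start at 0. Ptgs1 separates the lines with scramble samples at or below 82.5 and shSrsf3 samples at or above 114 CPM, and Bdkrb2 rises from group to group from a mean of 1.43 to one of 13.5 CPM.

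Among the prostanoid receptors, Ptger4 and Ptger2, which encode the EP4 and EP2 receptors for prostaglandin E2 and both signal through Gs and cAMP, differed in opposite directions. Ptger4 had 8.39, 6.58 and 6.90 CPM in scramble -PDGF-AA samples and 12.6, 13.7 and 12.9 CPM in shSrsf3 -PDGF-AA samples. With ligand, the scramble samples had 10.7, 12.3 and 12.2 CPM and the shSrsf3 samples 19.7, 16.4 and 17.03 CPM. The groups did not overlap in either condition. The log2 fold change was 0.85 (SE 0.0955, adjusted p = 8.69e-06 in edgeR) without ligand, or 1.80-fold, and 0.60 (SE 0.0912, adjusted p = 1.41e-04) with ligand, or 1.51-fold. Ttc33, a gene on the opposite strand that shares exon sequence with Ptger4, was listed at 14.9 to 24.3 CPM and was lower in shSrsf3 samples (log2 fold change -0.48 and -0.33).

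Ptger2 had 1.79, 1.98 and 1.66 CPM in scramble -PDGF-AA samples and 1.35, 1.41 and 1.18 CPM in shSrsf3 -PDGF-AA samples. With ligand it had 1.66, 1.29 and 1.67 CPM in scramble and 1.10, 1.27 and 0.869 CPM in shSrsf3 samples. The shSrsf3 samples were the lower ones in both conditions, without overlap, on 27 to 108 counts per sample. The log2 fold change was -0.45 and -0.51 (SE 0.171 and 0.183, adjusted p = 0.0456 and 0.037 in edgeR). The call without ligand was lost under 13 of 19 alternatives and that with ligand under 7 of 19, with adjusted p up to 0.299 and 0.150 in edgeR, the first without the 3 samples of lowest mapping rate and the second without shSrsf3 +PDGF-AA replicate 3. Gm49364 and Gm17173, antisense to Ptger2, were listed at up to 1.17 and 0.403 CPM.

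The ratio of Ptger4 to Ptger2 in CPM per kb, also computed after the values had been seen, was 3.17 ± 0.534 in scramble and 7.80 ± 0.651 in shSrsf3 samples without ligand. With ligand it was 6.04 ± 1.25 and 13.1 ± 2.71. No test is given, since the opposite directions of the 2 genes fix the direction of the ratio.

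Ptgfr encodes the prostaglandin F2α receptor and Ptger1 the EP1 receptor, 2 receptors linked to calcium signaling. Ptgfr had 9.12, 7.82 and 7.71 CPM in scramble -PDGF-AA samples and 5.79, 6.27 and 6.31 CPM in shSrsf3 -PDGF-AA samples, with no overlap (log2 fold change -0.42, SE 0.0977, adjusted p = 0.00307 in edgeR). With ligand, it had 6.86, 7.44 and 7.88 CPM in scramble and 7.40, 7.84 and 6.05 CPM in shSrsf3 samples. These samples overlapped, with a log2 fold change of -0.06 (95% interval -0.27 to 0.16, adjusted p = 0.683 in edgeR).

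Ptger1 had 6.57, 6.30 and 5.44 CPM in scramble and 7.85, 6.59 and 7.03 CPM in shSrsf3 samples without ligand, which did not overlap (log2 fold change 0.24, 95% interval -0.02 to 0.50, adjusted p = 0.119 in edgeR). With ligand it had 5.91, 6.66 and 5.10 CPM in scramble and 8.58, 6.54 and 7.40 CPM in shSrsf3 samples, which overlapped (log2 fold change 0.36, SE 0.122, adjusted p = 0.0322 in edgeR). The call with ligand was lost on leaving out any of 4 samples, namely replicates 1 and 3 of scramble +PDGF-AA and of shSrsf3 +PDGF-AA (adjusted p = 0.0577 to 0.161 in edgeR). Ptger1 shares exon sequence with a gene on the opposite strand. The libraries were stranded per the methods, but the strand setting of the counting is not given in the sources used here. The level of Ptger1 is uncertain for that reason.

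Bdkrb2, the B2 bradykinin receptor, had the largest difference between the lines among the 9 tested genes. Without ligand, it had 1.32, 1.08 and 1.87 CPM in scramble samples and 8.08, 8.26 and 8.97 CPM in shSrsf3 samples. With ligand, it had 2.81, 3.33 and 3.46 CPM in scramble samples and 11.1, 13.3 and 16.2 CPM in shSrsf3 samples. The lowest shSrsf3 sample of the 6 was above the highest scramble sample of the 6 by more than the range of the scramble samples. The log2 fold change was 2.52 (SE 0.176, adjusted p = 8.85e-08 in edgeR) without and 2.07 (SE 0.154, adjusted p = 1.86e-07) with ligand, or 5.74-fold and 4.21-fold. The calls held under all 19 alternatives, with log2 fold changes between 2.16 and 2.82 and between 1.93 and 2.20. No annotated gene overlaps Bdkrb2, and none of its 31-base sequences occurs in transcripts of another gene.

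Bdkrb1, the B1 bradykinin receptor, was at or near the limit of detection in every group. It had 1 to 3 counts in scramble -PDGF-AA samples, 0 or 1 in shSrsf3 -PDGF-AA samples, 0 to 5 in scramble +PDGF-AA samples and 0 to 3 in shSrsf3 +PDGF-AA samples. A count of 0 allows a level of up to 3 counts, or 0.0388 to 0.0966 CPM depending on the library, counting error only. Without ligand, the summed counts were 6 in scramble and 2 in shSrsf3 samples, a ratio of 0.263 per library size (95% exact Poisson interval 0.026 to 1.47, counting error only). The upper bound lies below the 5.74-fold difference of Bdkrb2. With ligand, the sums were 6 and 5, a ratio of 1.5 (0.362 to 5.90), which includes the 4.21-fold difference of Bdkrb2, so that a difference of that size was not detectable.

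Among the protein-coding genes around the receptor pair, Atg2b and Gskip had levels that could be compared, and neither shared the difference of Bdkrb2. Their starts lie 122.2 and 121.7 kb from that of Bdkrb2. Atg2b, an autophagy lipid transfer protein gene, had a mean of 44.3, 44.1, 46.6 and 43.7 CPM in scramble -PDGF-AA, shSrsf3 -PDGF-AA, scramble +PDGF-AA and shSrsf3 +PDGF-AA samples. Its log2 fold change between the lines was -0.01 (95% interval -0.12 to 0.11, adjusted p = 0.915 in edgeR) and -0.09 (-0.21 to 0.02, adjusted p = 0.188). Gskip, which encodes a protein that binds GSK3β, had log2 fold changes of -0.09 (-0.19 to 0.00, adjusted p = 0.108 in edgeR) and -0.03 (-0.13 to 0.07, adjusted p = 0.624). The intervals of both genes lie below the lower bounds of 2.14 and 1.74 for Bdkrb2. Tcl1 and Tunar were at 0 counts in all samples, and D430019H16Rik and Ak7 were at no more than 0.0644 and 0.115 CPM. These genes were too low for a difference between the lines to be judged.

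**Figure D3:**
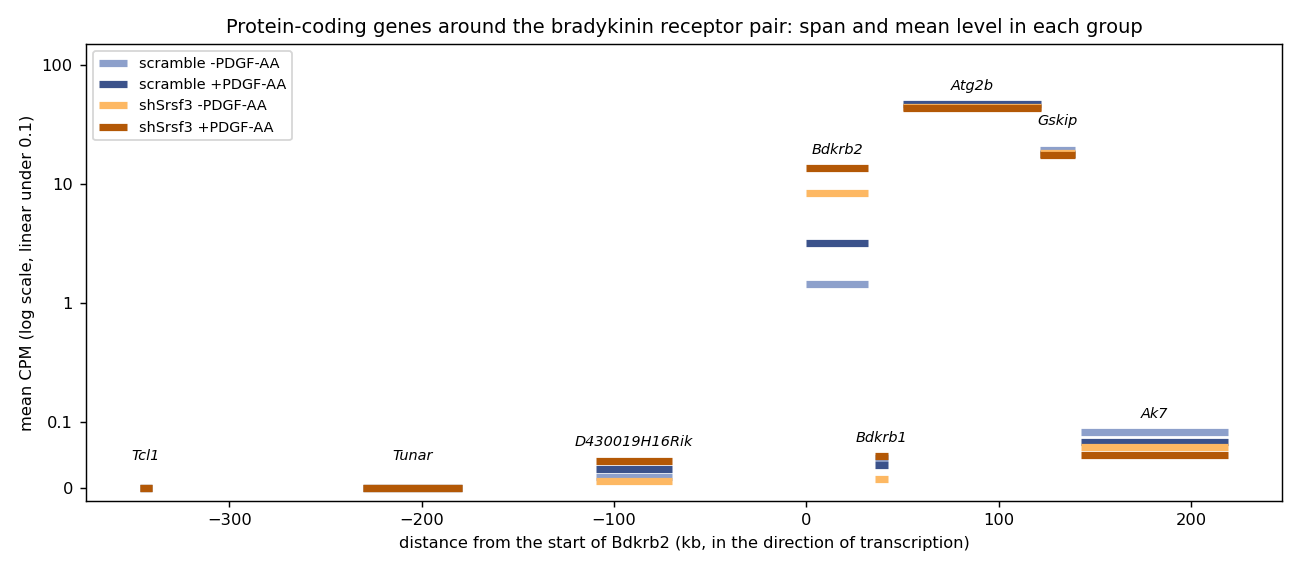
Span of the protein-coding genes around Bdkrb2 and Bdkrb1, in kb from the start of Bdkrb2, against their mean CPM in each group on an axis that is logarithmic above 0.1 and linear below. Bdkrb2 moves between 1.43 and 13.5 CPM, while Atg2b stays between 43.7 and 46.6 CPM and Bdkrb1 stays at or below 0.0474 CPM.

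The effect of the ligand was examined next in each line. In shSrsf3 cells, no member of the 9 was DE or reached an adjusted p of 0.05 in edgeR, against 0.0399% and 0.565% of all tested genes. Bdkrb2 and Ptger4 were the 2 of 9 genes whose samples did not overlap, against 18% of all tested genes. Bdkrb2 had a mean of 8.44 ± 0.468 CPM without and 13.5 ± 2.55 CPM with ligand (log2 fold change 0.68, SE 0.143, adjusted p = 0.0551 in edgeR), and its adjusted p ranged from 2.57e-09 to 0.292 over the alternatives. Ptger4 had 13.1 ± 0.585 and 17.7 ± 1.74 CPM (log2 fold change 0.44, SE 0.0910, adjusted p = 0.0513 in edgeR), with a range of 1.6e-06 to 0.286. DESeq2 called both genes (adjusted p = 3.81e-04 for Bdkrb2 and 7.15e-04 for Ptger4). Ptgs2 had 628 ± 72.1 and 683 ± 40.3 CPM, with overlapping samples (log2 fold change 0.12, 95% interval -0.05 to 0.29, adjusted p = 0.690 in edgeR). The log2 fold changes of the other 6 tested genes were between -0.29 (Ptger2) and 0.22 (Ptgfr), and the median over the 9 genes was 0.10, with 0.00 for all tested genes.

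In scramble cells, the comparison on which Bdkrb2 was chosen, values are given as a description. Bdkrb2 went from 1.43 ± 0.406 to 3.20 ± 0.347 CPM, a log2 fold change of 1.13 (SE 0.188). Being DE there, as 0.200% of all tested genes were, is what Bdkrb2 was chosen by, and nothing is read from it. Ptger4 had the next largest change, under the fold change minimum, with 7.29 ± 0.970 and 11.7 ± 0.914 CPM and a log2 fold change of 0.69 (SE 0.0956). Ptgs2 went from 485 ± 34.9 to 652 ± 46.7 CPM (0.43, SE 0.0791) and Ptges from 23.2 ± 0.897 to 26.5 ± 0.522 CPM (0.19, SE 0.0497). The samples of these 4 genes did not overlap, against 18.8% of all tested genes. Bdkrb2, 1 of the 4, was chosen by its change there, so nothing is read from this count. Ptgs1, Ptgis, Ptgfr, Ptger1 and Ptger2 had log2 fold changes between -0.23 and 0.04, with overlapping samples. Bdkrb2 had a log2 fold change of 0.97 without scramble -PDGF-AA replicate 2 and of 0.74 without the 3 samples of lowest mapping rate, both under the fold change minimum.

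Side by side, the log2 fold changes upon ligand treatment were 1.13 in scramble and 0.68 in shSrsf3 cells for Bdkrb2, 0.69 and 0.44 for Ptger4, and 0.43 and 0.12 for Ptgs2. The scramble samples that carry the first value of each pair are those of the contrast that chose Bdkrb2, and the difference between the lines was therefore not tested. In CPM the steps of Bdkrb2 ran the other way, from 1.43 to 3.20 in scramble and from 8.44 to 13.5 in shSrsf3 cells.

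**Figure D4:**
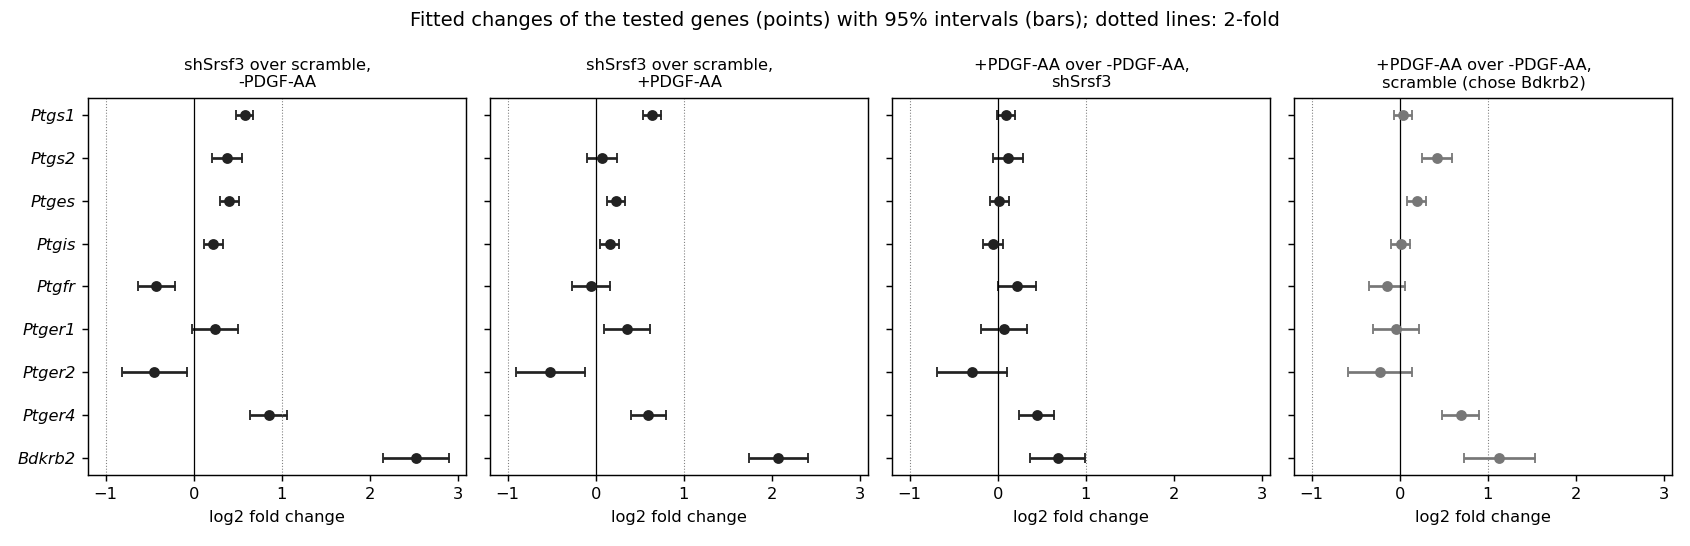
Log2 fold change (points) with 95% interval (bars) of the 9 tested genes in the 2 comparisons between the lines and the 2 comparisons upon ligand treatment, with dotted lines at 2-fold. Bdkrb2 lies beyond 2-fold between the lines in both conditions (2.52 and 2.07), and every other gene lies between -0.51 and 0.85 there.

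A list of 66 further genes of prostanoid and kinin metabolism and signaling was examined for context, of which 48 were tested. Between the lines, 28 of the 48 had an adjusted p of 0.05 or less without ligand (20 higher and 8 lower in shSrsf3 samples, against 45.9% of all tested genes), and 22 did with ligand (18 higher and 4 lower, against 41.0%). Of these, 3 of 48 were DE without ligand, against 5.75% of all tested genes, and 1 with ligand, against 5.42%, so that the share was close to or below that of all genes. Upon ligand treatment of shSrsf3 cells none reached an adjusted p of 0.05 in edgeR, against 0.565% of all tested genes. The median log2 fold change of the list between the lines was 0.11 and 0.13.

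Tbxa2r, the thromboxane receptor, was higher in shSrsf3 samples, with 0.457 ± 0.102 and 1.25 ± 0.251 CPM without ligand (log2 fold change 1.46, SE 0.241, adjusted p = 2.54e-04 in edgeR), and with ligand 0.589 ± 0.0589 and 1.04 ± 0.206 CPM (0.82, SE 0.240, adjusted p = 0.0143). Serping1, the C1 inhibitor, which restrains the kallikrein that releases bradykinin, had 24.2 ± 1.94 and 48.6 ± 0.833 CPM without ligand (1.01, SE 0.0579, adjusted p = 1.34e-08 in edgeR), and with ligand 24.1 ± 0.751 and 47.4 ± 3.06 CPM (0.98, SE 0.0581, adjusted p = 2.19e-08). Gna14, a G protein subunit of the Gq class, was lower, with 4.62 ± 0.302 and 1.84 ± 0.0926 CPM without ligand (-1.32, SE 0.150, adjusted p = 9.57e-06 in edgeR), and with ligand 4.55 ± 0.493 and 1.90 ± 0.530 CPM (-1.27, SE 0.157, adjusted p = 2.28e-05).

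The other genes of the list are given by role, and those named were picked after their values had been seen. Each count of genes with an adjusted p of 0.05 or less stands against 45.9% of all tested genes without and 41.0% with ligand, in either direction, and no role is set apart by its count. In prostanoid transport and breakdown, 4 of 5 tested genes were higher in shSrsf3 samples without ligand and 3 with ligand. They were Slco2a1, the prostaglandin uptake transporter (log2 fold change 0.53 and 0.51), Ptgr1, a prostaglandin reductase (0.47 and 0.59), Abcc4, an exporter of prostaglandins (0.33 and 0.18), and, without ligand, Cbr3 (0.16). In arachidonic acid supply and other prostanoid synthases, 3 of 10 genes were higher and 3 lower without ligand, and 4 were higher and 1 lower with ligand. Pla2g4a, the cytosolic phospholipase that releases arachidonic acid, was among the higher genes in both (0.12 and 0.14). Among the other prostanoid receptors, Ptgir, the prostacyclin receptor, was higher without ligand (0.89, adjusted p = 0.0172 in edgeR) at no more than 0.570 CPM, and Ptgfrn, which encodes a membrane protein that associates with the prostaglandin F2α receptor, was lower (-0.18, adjusted p = 0.0113).

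On the kinin side, the kininogen genes Kng1 and Kng2 and the activating protease genes Klkb1, Klk1 and F12 did not pass the filter on low counts. In kinin breakdown, 3 of 12 tested genes were higher and 1 lower without ligand, and 2 were higher with ligand, shares below those of all tested genes. Prcp, a lysosomal carboxypeptidase, had log2 fold changes of 0.63 and 0.77, and Cpd, a carboxypeptidase, of 0.33 and 0.26. Mme, the peptidase neprilysin, had values of 0.11 and 0.04 and did not pass the test. In Gq and calcium signaling, which lies below the B2, EP1 and prostaglandin F2α receptors, 3 of 9 genes were higher and 2 lower in both conditions. Gnaq (0.40 and 0.28), the phospholipase gene Plcb4 (0.82 and 0.69) and the calcium release channel gene Itpr1 (0.48 and 0.30) were higher, while Plcb1 (-0.46 and -0.56) and Gna14 were lower. In Gs signaling, below EP2 and EP4, 4 of 8 genes were higher and 1 lower in both conditions. The higher ones were Adcy6, which makes cAMP (0.20 and 0.27), and Pde4a (0.36 and 0.43), Pde4b (0.63 and 0.77) and Pde4d (0.31 and 0.28), which degrade it, and the lower one was Gnas (-0.09 and -0.12).

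**Figure D5:**
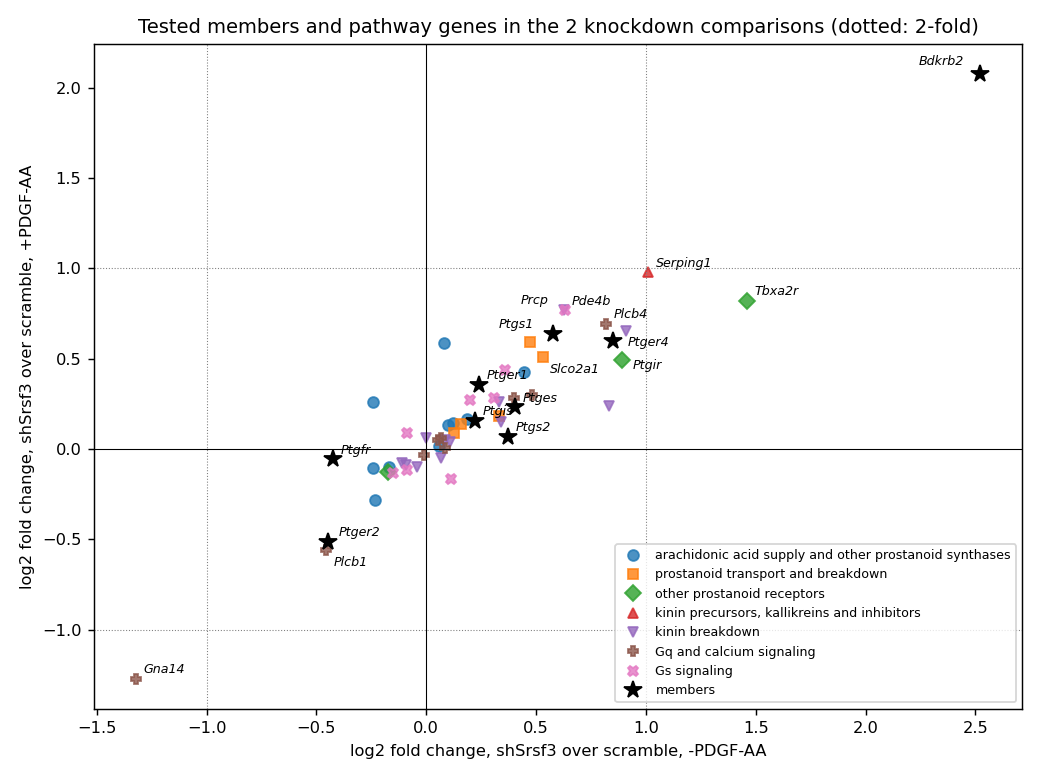
Log2 fold change between shSrsf3 and scramble samples without ligand (x axis) and with ligand (y axis) for the 9 tested genes (stars) and the 48 tested genes of the list, by role, with dotted lines at 2-fold. Bdkrb2 lies at 2.52 and 2.07, Tbxa2r at 1.46 and 0.82 and Gna14 at -1.32 and -1.27.

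Finally, genes were ranked by how closely their pattern over the 12 samples followed that of Bdkrb2, by Pearson's r of log2(CPM + 0.5) among 12261 other tested genes with a mean count of at least 50. The 12 points fall into 4 groups of 3, so that r is mostly set by differences between groups, and it is given as a description. The first 5 were Ckb, the brain-type creatine kinase (r = 0.990), Nectin1, a cell adhesion molecule (0.988), Kcnn4, a calcium-activated potassium channel (0.985), Hmga1b (0.984) and Ints7, an Integrator subunit (0.981). Hmga1b is a near copy of Hmga1, and its counts are uncertain. Ckb had a mean of 8.72, 15.6, 26.5 and 34.0 CPM in scramble -PDGF-AA, scramble +PDGF-AA, shSrsf3 -PDGF-AA and shSrsf3 +PDGF-AA samples, the same order as Bdkrb2 with 1.43, 3.20, 8.44 and 13.5 CPM. Of the tested genes of the set, Ptges (0.947), Ptgs1 (0.946) and Ptger4 (0.916) had the highest r with Bdkrb2, Ptgs2, Ptgis and Ptger1 had 0.726, 0.698 and 0.603, and Ptgfr (-0.633) and Ptger2 (-0.897) ran in the opposite direction.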

How the data were processed

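RNA-seq was examined for 12 samples in 4 groups of 3, assigned by their labels. The authors quantified transcripts with Salmon (v1.4.0 per the labels' processing notes) against GENCODE M26 on GRCm39 and summed them per gene symbol with tximport, and they deposited expected counts, of which 16.3% are not whole. The libraries were stranded per the methods. The scaling in tximport and the strand setting of the counting are not given in the sources used here. Expected counts were rounded, filtered with filterByExpr (minimum count 10), and normalized with TMM factors, which also scale CPM. edgeR 4.0.16 (R 4.3.3) fitted its quasi-likelihood test to 15037 genes in 1 model of 4 groups and all samples, with Benjamini-Hochberg adjustment. DE genes changed at least 2-fold with an adjusted p of at most 0.05. The script was tested on simulated data. The p-values measure the spread between replicate cultures of 1 line each. The genes and lists were chosen with earlier results of these data known. The text names all 10 genes, list genes that were DE, the 5 genes most like Bdkrb2, and its protein-coding neighbors. Positions, exon lengths and promoters come from GENCODE M39 on GRCm39. Of the 66 listed genes 1 (Ptgr3) was not analysed here, and 17 did not pass the filter. Alternatives were other scaling, no filter, DESeq2 1.42.0, a replicate block, 6-sample fits, no fold change minimum, and samples left out, including 3 with the lowest mapping rate in the methods (replicates 1 and 2 of scramble -PDGF-AA, replicate 2 of scramble +PDGF-AA), where the spread of a lone remaining sample was taken from the other groups. Values of 1 further gene are not reported here.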

Additional observations from a re-analysis of the deposited data

How the results depend on the processing

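Between the lines, 308 of 342 log2 fold changes of the 9 genes under 19 alternatives kept their direction and side of the threshold, 32 lost the call, 1 gained it and 1 turned. Upon ligand treatment of shSrsf3 cells, 150 of 171 kept both, 17 gained a call and 4 turned. Bdkrb2, Ptgs1, Ptger4 and Ptges kept their calls between the lines in every alternative. With no fold change minimum, the genes called were 8 of 9 between the lines without ligand and 7 with ligand, in place of 1 each. Of all tested genes, 45.9% and 41.0% were called in this way. In scramble cells, the 1 DE gene upon ligand treatment was Bdkrb2, by which the set was chosen. Its log2 fold change was 0.74 without the 3 samples of lowest mapping rate, under the fold change minimum. That alternative was added after the data were seen. Leaving out 1 sample gave 0 to 1 DE genes there. Upon ligand treatment of shSrsf3 cells, the main result had 0 genes with an adjusted p of 0.05 or less, beside 85 of all 15037 tested genes. DESeq2 size factors gave 1 (91 of 15037 in all) and the DESeq2 Wald test 2 (213 of 12117). There were 2 with no filter on low counts (374 of 27138) and 2 with only the 6 samples of the comparison (201 of 14016). Leaving out 1 sample gave 0 to 2, beside 23 to 168 of all genes. Several of these alternatives thus called more genes over the whole table as well. With the replicate block, 1 gene was called upon ligand treatment of shSrsf3 cells, Bdkrb2 (log2 fold change 0.66, adjusted p = 0.0135 in edgeR), beside 93 of all 15037 genes. Between the lines, Ptger2 lost its call without ligand (-0.46, adjusted p = 0.0552 in edgeR). Same-numbered samples had correlations of deviations of -0.394 to 0.536 over 18 pairs and other samples -0.682 to 0.596 over 36. These ranges overlap, so whether the replicate numbers pair the samples cannot be told from them. Leaving out 1 sample gave 4 to 7 genes with an adjusted p of 0.05 or less between the lines with ligand (4 without scramble +PDGF-AA replicate 3 or shSrsf3 +PDGF-AA replicate 1), beside 5245 to 6678 of all genes. It gave 1 to 2 DE genes of the list with ligand, beside 788 to 861 of all genes, and 3 to 5 without, beside 786 to 971. The values that turned were small. They were log2 fold changes, which on leaving out 1 sample ranged from -0.133 to 0.044 for Ptgfr between the lines with ligand, and upon ligand treatment of shSrsf3 cells from -0.009 to 0.065 for Ptges, from -0.118 to 0.011 for Ptgis and from -0.040 to 0.160 for Ptger1. In scramble cells they ranged from -0.007 to 0.031 for Ptgis and from -0.142 to 0.049 for Ptger1, and without the 3 samples Ptger1 was at 0.016 and Ptger2 at 0.006. The causes were not tested. Bdkrb1, with 0 to 5 counts per sample, did not pass the filter.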
